A study of Mus musculus with 6 samples.

Results

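The Gimap genes, which encode the GTPases of immunity-associated proteins, were examined as a family in double-positive (DP) thymocytes with and without a conditional deletion of Nsrp1, the gene of the splicing regulator NSrp70. The members were every gene whose symbol is Gimap followed by a number: Gimap1, Gimap3, Gimap4, Gimap5, Gimap6, Gimap7, Gimap8 and Gimap9, 8 of the 23183 gene symbols listed, and all 8 passed the filter on low values. The libraries were poly(A)-selected RNA of sorted CD4+CD8+ thymocytes of C57BL/6 mice aged 6 weeks, 3 from WT mice (NSRP1f/f) and 3 from conditional knockout mice (NSRP1f/fCD4Cre, cKO). Both genotypes carried the floxed Nsrp1 alleles, and only the cKO mice carried the CD4Cre transgene, whose Cd4-derived promoter becomes active as thymocytes reach the DP stage. No Cre-only control was among the libraries, so the transgene and the deletion cannot be told apart. The labels do not say whether each library came from a separate mouse, so the p-values measure only the spread between these libraries.

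GIMAP proteins share a guanine nucleotide-binding domain of the AIG1 type, and their genes lie side by side in a single cluster that is used mainly by lymphocytes. The family is known for setting the survival of T cells: loss of Gimap5 causes lymphopenia, Gimap1 is needed to keep mature lymphocytes, and Gimap4 has been tied to the execution of T cell death. Gimap3 and Gimap5 are close relatives that have been reported to bind proteins of the Bcl-2 family, and Gimap6 binds an Atg8-type protein of the autophagy machinery. In the thymus several members are low in immature cells and rise as cells pass positive selection.

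Levels are given as FPKM, the fragments assigned to a gene divided by its transcript length and by the size of the library, which can be compared between genes because they are per length. Differences were tested with limma on log2(FPKM + 1) after scaling, over the 10326 genes with at least 1 FPKM in at least 3 libraries, and a gene was called at a Benjamini-Hochberg adjusted p under 0.05. Since 1 was added before taking logs, the log2 fold change understates the change of low genes such as Gimap3. RNA is from sorted bulk cells, so fewer cells of a type and less RNA per cell cannot be told apart.

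Nsrp1, listed under its older symbol Ccdc55, read 20.2, 20.7 and 21.1 FPKM in the WT libraries and 17.7, 15.8 and 15.0 in the cKO libraries. It was lower in cKO by log2 -0.34 ± 0.077 (SE, n = 3 and 3), adjusted p = 0.00675 by limma, and 0.184 with the WT libraries as 1 sample. The value covers the whole gene, so it does not show the deleted exons alone.

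The genotypes also differed in ways that touch every result below. Xist, the RNA of the silenced X chromosome, read 69.8 to 72.0 FPKM in WT and 4.07 to 5.44 in cKO, and the Y-linked genes Ddx3y, Eif2s3y, Kdm5d and Uty were at 0 in the 3 WT libraries and present in the 3 cKO libraries, so genotype and sex cannot be told apart. The FPKM of a library summed to 521296 to 531517 in WT and 701396 to 850548 in cKO. The depth implied by the spacing of low FPKM values was about 20.5 to 20.8 M fragments in WT and 13.2, 20.5 and 17.1 M in cKO 1, 2 and 3. Pairs of WT libraries differed by little more than counting noise (mean chi-square per gene 1.5 to 1.6, where 1 is noise alone), against 26.9 to 61.8 between cKO libraries. These values cover 714 to 796 genes per pair, coding genes with 1 annotated transcript and a mean of at least 10 inferred fragments. Fragments were inferred from the depths above with an assumed fragment length of 200 nt, so the noise values depend on both. The labels do not say why the WT libraries were so alike, and the members, the genes around them and the lists were therefore also tested with the 3 WT libraries averaged into 1 sample.

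The sequences in front of the genes are set out before the levels, since the cluster holds neighbours that moved in different ways. RefSeq start sites (GRCm38.p6) gave 9 windows of 300 bases for the 8 members, 250 bases before to 50 after the start, with 2 windows for Gimap8. Shown here in the direction of transcription are those of Gimap3, the member with the most negative log2 fold change, of Gimap1, the member with the most positive, of Gimap5, nearest the median together with Gimap7 and the closest relative of Gimap3, and of Gimap4, added after its values were seen because it fell with Gimap3. They lie at chr6:48770802-48771101 on the minus strand for Gimap3, and on the plus strand at chr6:48738797-48739096 for Gimap1, chr6:48745947-48746246 for Gimap5 and chr6:48684328-48684627 for Gimap4. Capitals mark a match, on the opposite strand, to the FOXO letters TGTTTAC.
Gimap3: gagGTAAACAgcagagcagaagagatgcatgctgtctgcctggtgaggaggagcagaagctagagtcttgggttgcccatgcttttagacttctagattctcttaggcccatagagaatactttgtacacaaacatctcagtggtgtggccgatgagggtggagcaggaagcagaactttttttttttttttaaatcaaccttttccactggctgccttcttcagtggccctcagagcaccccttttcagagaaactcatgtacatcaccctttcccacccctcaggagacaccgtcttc
Gimap1: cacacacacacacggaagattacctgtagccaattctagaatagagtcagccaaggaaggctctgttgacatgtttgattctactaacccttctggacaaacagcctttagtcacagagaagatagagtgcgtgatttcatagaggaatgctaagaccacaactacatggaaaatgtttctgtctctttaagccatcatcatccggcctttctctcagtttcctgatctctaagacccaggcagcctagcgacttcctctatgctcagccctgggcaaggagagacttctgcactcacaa
Gimap5: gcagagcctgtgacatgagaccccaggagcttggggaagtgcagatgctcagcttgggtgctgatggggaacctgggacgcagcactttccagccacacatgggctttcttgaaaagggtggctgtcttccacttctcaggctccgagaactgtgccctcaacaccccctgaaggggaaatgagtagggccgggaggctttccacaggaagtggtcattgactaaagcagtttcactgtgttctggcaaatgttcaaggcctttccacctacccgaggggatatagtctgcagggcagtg
Gimap4: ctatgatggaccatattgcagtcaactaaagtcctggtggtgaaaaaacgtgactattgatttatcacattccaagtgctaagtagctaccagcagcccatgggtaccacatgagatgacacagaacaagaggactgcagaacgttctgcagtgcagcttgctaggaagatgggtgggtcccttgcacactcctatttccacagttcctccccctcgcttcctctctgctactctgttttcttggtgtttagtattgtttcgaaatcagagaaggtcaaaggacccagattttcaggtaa

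The letters searched, on both strands, were those of factors known in T cell genes. TGTTTAC (FOXO) was found in 1 of the 9 windows, that of Gimap3, at base -247 from the start, and in 3.65% of all 32851 RefSeq windows of this length. None of the 9 windows held the KLF letters CCACACCC, found in 3.56% of all windows, the ETS letters CCGGAAG, found in 8.86%, or the RUNX letters TGTGGTT, found in 5.27%. The E-box letters CAGCTG, in 16.3% of all windows, and the GATA letters AGATAA, in 11.2%, were in 0 of the 9 as well. The TATA letters TATAAA were in the Gimap6 window alone, at base -219 from the start, and in 13.6% of all windows. Gimap3 and Gimap4, the members that fell most, thus shared none of the letters searched. A match is a string of letters and not a shown binding site.

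Of the 8 members, 6 were called, 3 higher in cKO (Gimap1, Gimap6 and Gimap9) and 3 lower (Gimap3, Gimap4 and Gimap8), while Gimap5 and Gimap7 were not. Among all tested genes 65.5% were called, 35.8% higher and 29.8% lower, so the number of members called is close to that background. The 3 values of one genotype lay entirely above those of the other for 6 of the 8 members, against 72.5% of all tested genes. The median log2 fold change of the members was 0.04, as it was over all tested genes. With the WT libraries averaged into 1 sample, 2 of the 8 members were called, Gimap3 and Gimap4, where 15.9% of all tested genes were. The sizes differed far more than the counts: Gimap3 and Gimap4 lost most of their transcript, and the mean FPKM of each of the other 6 changed by 1.41-fold or less.

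**Figure D1:**
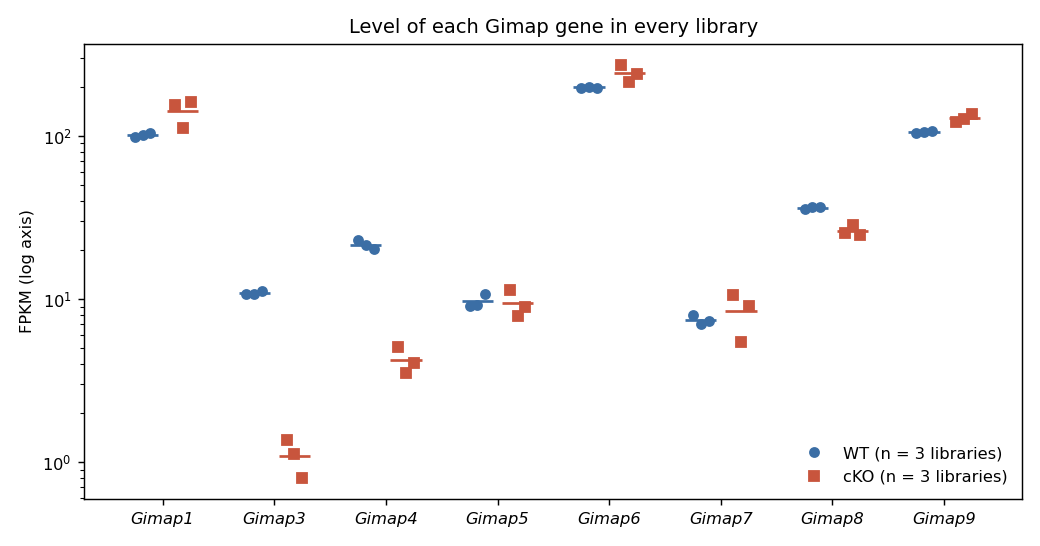
FPKM of each Gimap gene (log axis) in the 3 WT libraries (circles) and the 3 cKO libraries (squares), with a line at each group mean. Gimap3 and Gimap4 sit far lower in every cKO library, Gimap8 a little lower, and the groups overlap for Gimap5 and Gimap7.

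Gimap3 was the member that changed most. It read 10.7, 10.8 and 11.2 FPKM in WT libraries 1, 2 and 3, and 1.37, 1.12 and 0.797 FPKM in cKO libraries 1, 2 and 3. Every cKO value was below every WT value, and the mean level fell from 10.9 ± 0.28 to 1.09 ± 0.29 FPKM (SD, n = 3 and 3), 9.96-fold lower. On the log2 scale the change was -2.51 ± 0.11 (SE; 95% interval -2.77 to -2.25), with adjusted p = 4.48e-05 by limma and 0.0113 with the WT libraries as 1 sample. Only 9 of the 10326 tested genes had a more negative log2 fold change. With 1 added before taking logs, genes low in WT cannot reach so negative a value, so this rank depends on the WT level too. At the depths above, the FPKM correspond to about 432 to 447 fragments in WT and 26.5 to 44.7 in cKO, so the residual level in cKO rests on few fragments.

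Gimap4, the member tied to T cell death, moved the same way. Its FPKM were 22.9, 21.5 and 20.3 in WT and 5.12, 3.52 and 4.03 in cKO, with no overlap. The mean level fell from 21.6 ± 1.29 to 4.22 ± 0.82 FPKM, 5.11-fold lower, and the log2 fold change was -2.12 ± 0.12 (SE, n = 3 and 3; adjusted p = 8.56e-05 by limma; 0.0213 with the WT libraries as 1 sample). A more negative log2 fold change was seen in 16 tested genes, a rank with the same limit as that of Gimap3. Gimap3 and Gimap4 were called lower under each of the 16 alternative settings, with log2 fold changes from -3.23 to -1.38 for Gimap3 and from -2.62 to -1.53 for Gimap4.

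Gimap8 encodes an unusually long member with several GTPase domains. It read 35.4, 36.7 and 36.6 FPKM in WT and 25.5, 28.4 and 24.7 FPKM in cKO. All cKO values were lower, but the distance was small beside that of Gimap3: the mean level was 1.38-fold lower, log2 fold change -0.46 ± 0.069 (SE, n = 3 and 3; adjusted p = 0.00122 by limma). The call was lost with the WT libraries as 1 sample (adjusted p = 0.0936) and stood under the other 15 alternatives, with log2 fold changes over all of them from -1.0 to -0.40.

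The 3 members called higher were the 3 most abundant ones. Gimap6, the member that meets the autophagy machinery, read 197, 201 and 197 FPKM in WT and 274, 215 and 239 FPKM in cKO. Its cKO values were all above WT, with cKO 2 nearest to them, and the log2 fold change was 0.28 ± 0.10 (SE, n = 3 and 3; adjusted p = 0.0457 by limma), which turned to -0.28 when libraries were brought to the same FPKM total and to -0.19 under quantile normalization.

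Gimap1, which mature lymphocytes need, read 99.2, 101 and 104 FPKM in WT and 156, 111 and 163 FPKM in cKO. Here too cKO 2 was closest to WT, and the SD was 27.9 FPKM in cKO against 2.63 in WT. The log2 fold change was 0.47 ± 0.15 (SE, n = 3 and 3; adjusted p = 0.0248 by limma), and became 0.098 (adjusted p = 0.45) under quantile normalization and -0.085 with the same FPKM total in each library.

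Gimap9 read 104, 105 and 107 FPKM in WT and 122, 127 and 137 FPKM in cKO, the tightest of the 3. Its log2 fold change of 0.28 ± 0.069 (SE, n = 3 and 3; adjusted p = 0.0098 by limma) turned to -0.28 with the same FPKM total, to -0.082 under quantile normalization and to -0.35 (adjusted p = 0.00219) after a correction for GC content and length. A direction for Gimap1, Gimap6 and Gimap9 therefore depends on how the libraries are put on 1 scale. With the WT libraries as 1 sample the adjusted p were 0.224 for Gimap1, 0.392 for Gimap6 and 0.293 for Gimap9.

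These 3 calls were also lost in some of the fits that left out 1 library. Without a WT library the log2 fold changes moved little and the SE grew. They were then 0.46 to 0.49 for Gimap1, 0.28 to 0.29 for Gimap6 and 0.27 to 0.29 for Gimap9. Leaving out 1 library at a time, Gimap1 and Gimap6 kept their calls without cKO 2 alone: without WT 1, WT 2, WT 3, cKO 1 or cKO 3 in turn, the adjusted p for Gimap1 were 0.0747, 0.0701, 0.0593, 0.075 and 0.0852. For Gimap6 they were 0.132, 0.12, 0.131, 0.0734 and 0.0835. Gimap9 lost its call without WT 1 (adjusted p = 0.0574) and without WT 2 (0.0549). Without cKO 2 the log2 fold change of Gimap1 was 0.65 (adjusted p = 5.63e-05) and that of Gimap6 0.37 (0.00272).

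Gimap5, the member whose loss causes lymphopenia, read 9.07, 9.24 and 10.7 FPKM in WT and 11.4, 7.90 and 8.99 FPKM in cKO. The groups overlapped, with the highest and the lowest of the 6 values both in cKO. The log2 fold change was -0.04, with a 95% interval of -0.36 to 0.28 and adjusted p = 0.796 (0.894 with the WT libraries as 1 sample), so a fall of the size seen for Gimap3 lies outside the interval. It was called lower (log2 -0.55, adjusted p = 0.00669) only with the same FPKM total.

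Gimap7 was the lowest member in WT at 7.93, 7.05 and 7.34 FPKM, and read 10.7, 5.48 and 9.05 FPKM in cKO. Its cKO values lay on both sides of WT, the widest spread of the 8 members relative to the mean. The log2 fold change was 0.11 (95% interval -0.38 to 0.60, adjusted p = 0.651, and 0.821 with the WT libraries as 1 sample), and without cKO 2 it was 0.36 (adjusted p = 0.00983).

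Bringing every library to 1 FPKM total moved all 8 members downwards. With the same FPKM total in every library the 10326 genes had a median of -0.45 in place of 0.04, and against that median Gimap3 stood at -2.47, Gimap4 at -2.17 and Gimap8 at -0.55. Relative to the same median Gimap1 was at 0.37, Gimap6 and Gimap9 at 0.18, Gimap7 at 0.07 and Gimap5 at -0.10. The order of the members was then the one above, but for Gimap6 and Gimap9, which changed places.

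**Figure D2:**
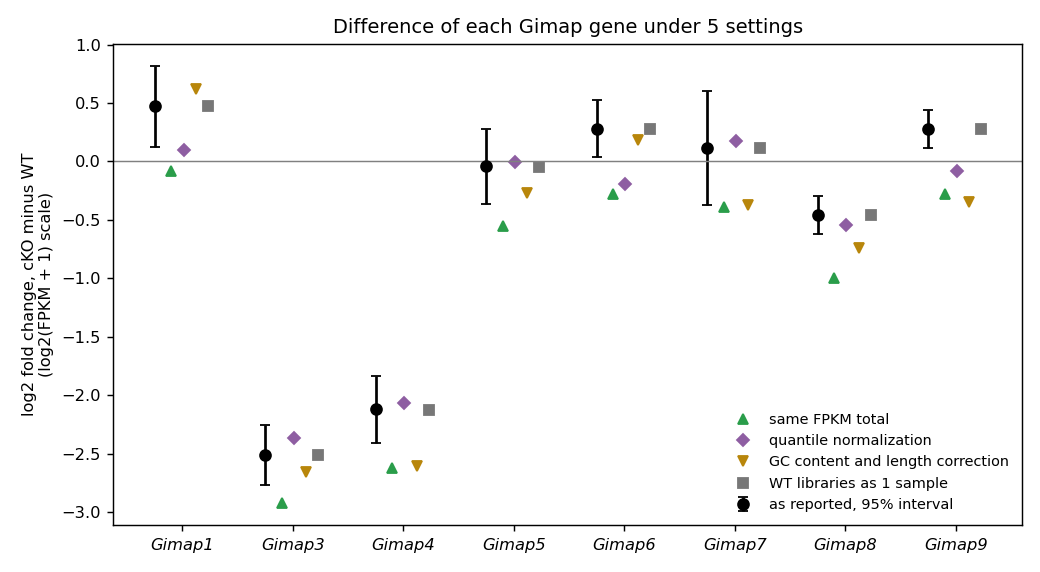
Log2 fold change (cKO minus WT) of each Gimap gene as reported, with its 95% interval (black), and under 4 alternative settings (coloured symbols). Gimap3, Gimap4 and Gimap8 stay below 0 under all 5, and so does Gimap5, which is at -0.003 under quantile normalization. Gimap1 falls below 0 with the same FPKM total, and Gimap6 also under quantile normalization. Gimap7 falls below 0 with the same FPKM total and after correction for GC content and length, and Gimap9 under each of these settings.

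The size of the family's transcript pool was taken first. Summed over the 8 members, the level was 487 to 495 FPKM in WT and 606, 500 and 586 FPKM in cKO 1, 2 and 3, with means of 492 ± 4.42 and 564 ± 56.5 FPKM (SD, n = 3 and 3). As a share of all FPKM of the library it was lower in cKO, 0.0689% to 0.0766% against 0.0916% to 0.0946%, so the direction of the sum depends on the scale.

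Shares within the family do not change when all values of a library are multiplied by 1 factor. They were not computed under quantile normalization or the correction for GC content and length, which can shift members against each other. Gimap1, Gimap6 and Gimap9 together made up 82.5% ± 0.20 of the summed Gimap FPKM in WT and 91.2% ± 0.60 in cKO (SD, n = 3 and 3). Gimap3 went from 2.22% to 0.195% and Gimap4 from 4.39% to 0.745%, and Gimap8 from 7.37% to 4.70%. The share of Gimap6 was 40.4% in WT and 43.0% in cKO, and its ranges over libraries were barely separate, 39.9% to 40.8% in WT and 40.8% to 45.2% in cKO.

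Ratios between neighbours and relatives show the same within each library. Gimap3 over Gimap5, the closest pair by sequence, was 1.18, 1.17 and 1.05 in WT and 0.119, 0.141 and 0.0886 in cKO. Gimap4 over Gimap9, the neighbour before it in the cluster, was 0.190 to 0.220 in WT and 0.0277 to 0.0419 in cKO. Neither ratio overlapped between genotypes.

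**Figure D3:**
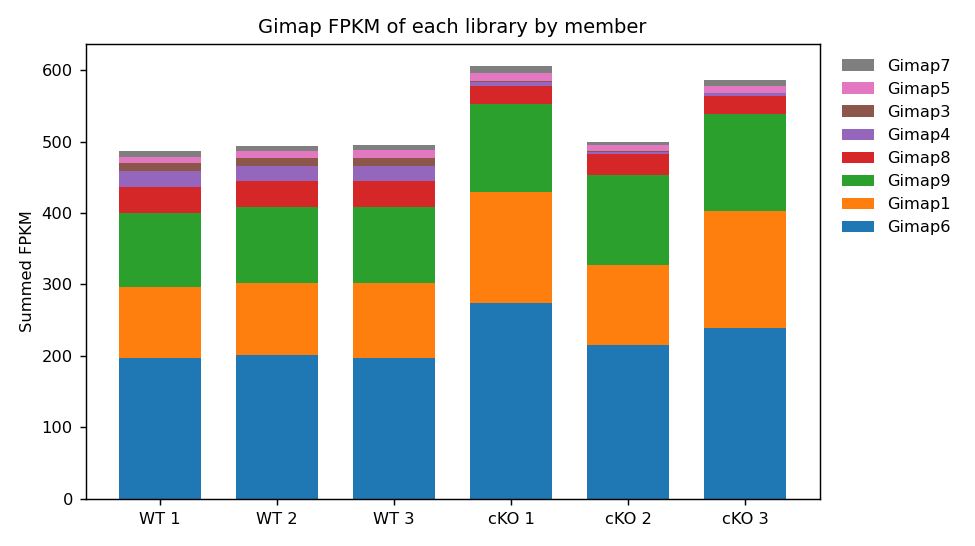
Summed FPKM of the 8 Gimap genes in each library, split by member. Gimap6, Gimap1 and Gimap9 fill most of every bar, and the bands of Gimap4 and Gimap3 nearly vanish in the 3 cKO libraries.

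In WT the order of levels was Gimap6, then Gimap9 and Gimap1 with overlapping ranges, Gimap8, Gimap4, Gimap3 and Gimap5 with overlapping ranges, and Gimap7. In cKO Gimap6 still led, followed by Gimap1 and Gimap9, Gimap8, Gimap5 and Gimap7, Gimap4 and last Gimap3. The ranges of Gimap1 and Gimap9 and those of Gimap5 and Gimap7 overlapped in cKO, and all other neighbours in the order were separate. Gimap4 and Gimap3 thus moved from above Gimap7 to the bottom, while the leading 4 genes stayed the leading 4.

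Across the 6 libraries, and only as a description, the log levels of Gimap3 and Gimap4 had Pearson r = 0.99, Gimap3 and Gimap8 r = 0.97, and Gimap3 and Gimap9 r = -0.97. Gimap1 and Gimap6, the pair with the widest cKO spread among abundant members, had r = 0.92. These 6 points fall into the 2 genotypes, which set most of each r. The genes outside the family closest to the mean standardized pattern of the 8 members were Zfp444 (r = 0.997), 4930470H14Rik (0.99), Atp6v0d1 (0.99), Klhdc4 (0.99) and Ticam1 (0.98), over the same 6 libraries. That mean pattern mixes members that moved in opposite directions.

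Position in the cluster did not sort the members by direction. The annotation (GENCODE, GRCm38) places the 8 genes at chr6:48647234-48770851, a span of 124 kb, in the order Gimap8, Gimap9, Gimap4, Gimap6, Gimap7, Gimap1, Gimap5 and Gimap3. Gimap6 and Gimap3 are on the minus strand and the other 6 on the plus strand. Gimap4, lower in cKO, lies 5.43 kb after Gimap9 and 9.52 kb before Gimap6, both called higher as scaled here and both turning negative with the same FPKM total. Gimap3, at the far end, lies 10.3 kb from Gimap5, which was not called.

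Gimap3 and Gimap5 are also the members most easily confused by their reads. Their coding sequences were identical at 90.7% of 895 aligned bases, whereas no pair that leaves out both this one and the long Gimap8 was above 68.8%. Of all 100-base windows in their transcripts, 2.00% of those of Gimap3 and 2.21% of those of Gimap5 occurred in the other gene, and for the other 6 members no window was shared with another member. Some fragments of this pair may therefore be split between them, though most windows tell them apart. The annotation also holds a transcript that reads from Gimap7 through Gimap5 (Gm28053) and one antisense to Gimap1 (Gimap1os), which the expression table does not list and which share 7.39% of the windows of Gimap1. Of the windows of Gimap5, 5.18% occurred in Gimap3 or Gm28053. The strand setting of the counting is not given in the sources used here. Reads from the windows that Gimap1 shares with its antisense partner therefore cannot be told apart.

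Inside the cluster and within 500 kb on either side of it 52 other genes are annotated, 23 of them were in the table and 10 passed the filter. Of these 10, 6 were called, 2 higher and 4 lower, a share close to the 65.5% of all tested genes, with a median log2 fold change of -0.02. Igf2bp3, an RNA-binding protein of early development, was lower by log2 -2.0, Krba1 by -1.02, Zfp467 by -0.80 and Repin1 by -0.46. Igf2bp3 and Zfp467 were under 1 FPKM in all cKO libraries, so they passed the filter through WT alone and had to be lower to be tested. Tmem176b (0.40) and Malsu1 (0.41) were called higher, and both turned negative with the same FPKM total (-0.12 and -0.13). Correction for GC content and length ended the calls of Zfp467 (-0.26), Repin1 (0.017), Tmem176b and Malsu1. The nearest tested gene before the cluster, Zfp775 at 24.0 kb, was not called (log2 -0.03), though it was lower with the same FPKM total (-0.45, adjusted p = 0.00524) and higher after correction for GC content and length (0.50, adjusted p = 0.00779), and the nearest one after it was Tmem176b at 63.0 kb. The closest annotated gene in the table, AI854703 at 13.5 kb, stayed below the filter. Without WT 2, 3 of these neighbours were called: Igf2bp3 and Zfp467 no longer passed the filter without any one WT library, and Tmem176b lost its call (adjusted p = 0.0738), as it did without cKO 1 (0.0533) or cKO 3 (0.065). With the WT libraries as 1 sample 2 were called, Igf2bp3 and Krba1.

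**Figure D4:**
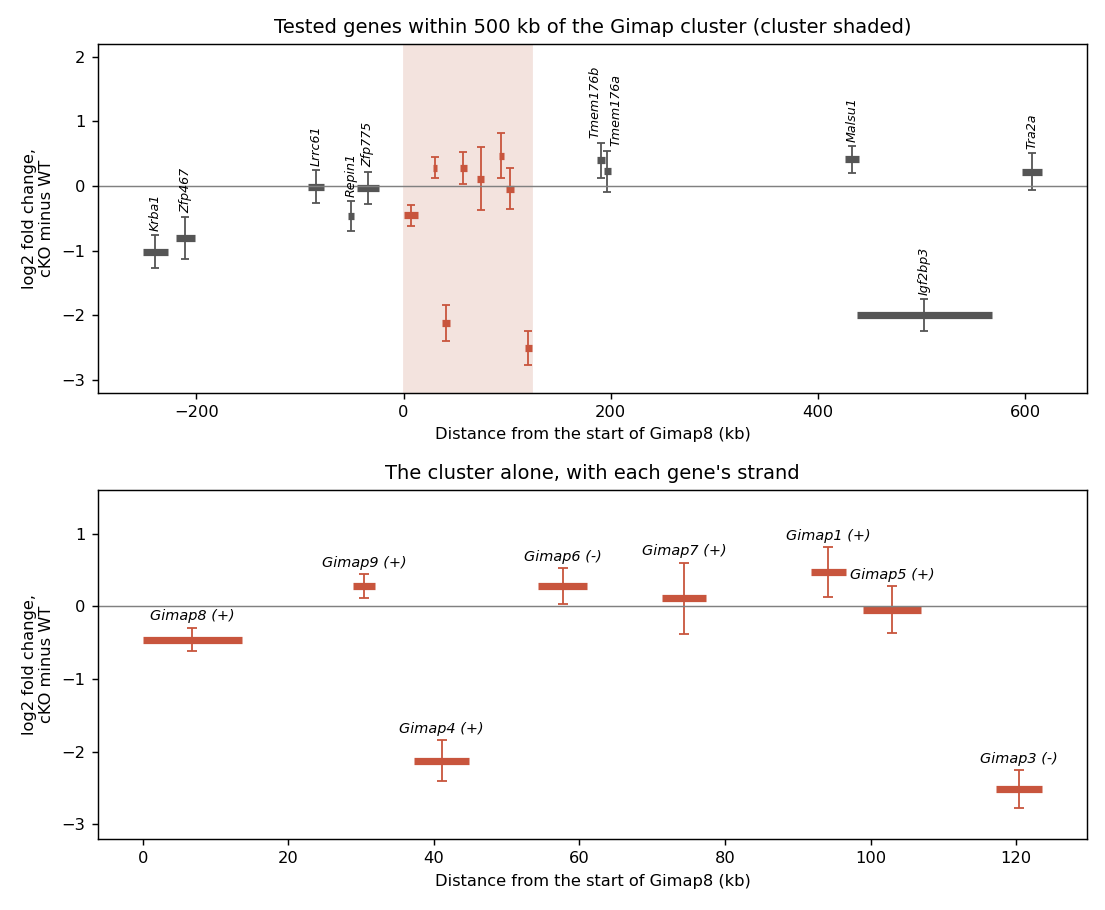
Log2 fold change (cKO minus WT, log2(FPKM + 1) scale) of tested genes by distance from the start of Gimap8 in kb, for 500 kb around the cluster (top, Gimap genes in the shaded span) and for the cluster alone (bottom). Bars span each gene and vertical lines are 95% intervals, and the deep falls of Gimap4 and Gimap3 lie among members between -0.46 and 0.47, of which Gimap9, Gimap6, Gimap7 and Gimap1 turn negative with the same FPKM total.

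Proteins that GIMAP members are known to work with were examined as lists. Among 10 genes of the Bcl-2 family, 7 were called, near the 65.5% of all tested genes, 4 higher and 3 lower, with a median log2 fold change of 0.14 against 0.04 over all tested genes. With the same FPKM total 1 was called higher and 6 lower. Bcl2, which protects cells from death, fell from 8.31 ± 0.34 to 3.66 ± 0.73 FPKM (log2 -1.01, adjusted p = 0.000439), and the death-promoting Bcl2l11 (log2 -0.97) and Bbc3 (-0.60) were lower too. Bid (0.67), Pmaip1 (0.75) and Bad (0.91), which all promote death, were called higher, Bid and Pmaip1 not with the same FPKM total (0.13 and 0.36). Bcl2l1, the gene of the protective Bcl-xL, was called higher (0.26) but turned to -0.30 with the same FPKM total and to -0.11 under quantile normalization, and kept its call without cKO 2 only among the libraries left out in turn. With the WT libraries as 1 sample 2 of the 10 were called, Bcl2 and Bcl2l11.

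The Atg8 proteins, ubiquitin-like proteins on autophagosome membranes that include the reported partner of Gimap6, had 4 of 5 genes called, beside 65.5% of all tested genes, 3 higher and 1 lower, with a median log2 fold change of 0.43. With the same FPKM total 0 were called higher and 2 lower, and under quantile normalization 1 was called higher, Gabarap. Gabarap (0.69) was called higher (0.13 and not called with the same FPKM total), and so were Gabarapl2 (0.51) and Map1lc3b (0.43), which turned to -0.046 and -0.13 with the same FPKM total and Map1lc3b also to -0.028 under quantile normalization. Map1lc3a was lower (-0.47), a call lost when WT 1, WT 2 or WT 3 was left out (adjusted p = 0.0892, 0.0536 and 0.0597). With the WT libraries as 1 sample 0 of the 5 were called.

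Genes that respond to positive selection, the step in which several Gimap genes normally rise, were lower in 7 of 9 cases and higher in 0, beside 29.8% of all tested genes called lower, with a median log2 fold change of -0.41. The count lower was 4 without WT 1, WT 2, WT 3 or cKO 3, and 1 gene was called higher after correction for GC content and length. Egr1 fell from 24.7 ± 0.47 to 9.04 ± 1.64 FPKM (log2 -1.37, adjusted p = 0.000191). Nr4a1 (-1.21), Egr2 (-0.76) and Itm2a (-0.71), all early targets of T cell receptor signalling or selection, were lower as well. Egr1 alone was called with the WT libraries as 1 sample.

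Markers of mature single-positive T cells moved in part like Gimap3 and Gimap4. Of the 9 such genes reported here, 6 were lower and 3 were not called, beside 29.8% of all tested genes called lower. The median log2 fold change of the 9 was -1.73. Ccr7, the chemokine receptor for entry to the medulla, fell from 15.5 ± 0.61 to 1.69 ± 0.71 FPKM (log2 -2.64, adjusted p = 0.000106). S1pr1, the exit receptor, fell by 2.21 on the log2 scale, and the others were Ms4a4b (-1.74), Itgb7 (-1.74), Klf2 (-1.73) and Il7r (-1.67). All 6 genes called lower were also called with the WT libraries as 1 sample. S1pr1 was under 1 FPKM in every cKO library, passed the filter through WT alone and was not tested without any one WT library.

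The summed level of the 9 mature markers was 746 to 748 FPKM in WT and 536 to 795 in cKO, most of it from Cd52 and Slfn2, which were not called, and none of the 9 was at 0 in all libraries. The share of mature cells in the sorted samples was not measured, and its part in the fall of Gimap3 and Gimap4 was not tested.

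**Figure D5:**
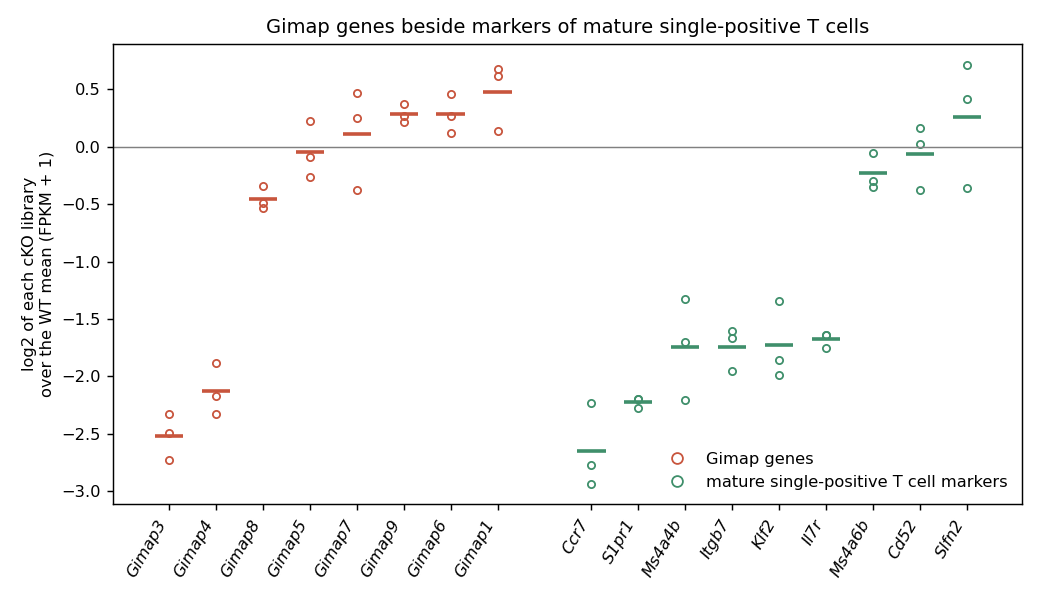
Log2 of each cKO library over the WT mean, as (FPKM + 1), for the 8 Gimap genes and 9 markers of mature single-positive T cells, with a line at the mean of the 3 libraries. Gimap3 and Gimap4 lie in the range of Ccr7, S1pr1 and the other markers called lower. The means of the other 6 Gimap genes lie between -0.46 and 0.47, with single libraries of Gimap1 and Gimap8 beyond that range. The sign of Gimap1, Gimap6, Gimap7 and Gimap9 changes with the same FPKM total.

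The sorted cell type was checked on its markers. Beside each count below stand 35.8% of all tested genes called higher and 29.8% called lower. The 10 DP markers summed to 5293 to 5382 FPKM in WT and 7226 to 9347 in cKO, where the FPKM total was larger too, with 7 called higher and 3 lower. The count higher was 2 with the same FPKM total, 1 under quantile normalization and 0 with the WT libraries as 1 sample, and the count lower was 1 without WT 1, WT 2, WT 3, cKO 1 or cKO 3. Markers of double-negative thymocytes were lower in 3 of 3 tested (sums 11.9 to 13.1 and 5.77 to 7.06 FPKM). Erythroid genes were higher in 3 of 3 tested, with sums of 2.13 to 3.04 FPKM in WT and 15.4 to 31.9 in cKO. Of these, Hbb-b2 was under 1 FPKM in every WT library, so it passed the filter through cKO alone and had to be higher to be tested. Hba-a1 was under 1 FPKM in WT 1 and WT 3 (0.560 and 0.416) and at 1.00 in WT 2. B cell markers had 1 of 7 tested, called higher (sums 23.3 to 24.8 and 27.2 to 40.0 FPKM), and NK markers 2 of 6, 1 higher (55.1 to 61.3 and 77.1 to 106). Macrophage and dendritic markers had 5 of 11 tested, 2 lower (29.8 to 32.3 and 19.2 to 26.0), and endothelial markers 2 of 8, 1 higher (44.7 to 46.4 and 51.0 to 57.2), with Tek and Emcn at 0 in all libraries. Thymic epithelial markers had 2 of 7 tested and 0 called (6.45 to 6.83 and 4.65 to 5.91), with Krt5 and Foxn1 at 0. The B cell call was lost without WT 2, cKO 1 or cKO 3 and the endothelial one without any one WT library, and after correction for GC content and length 1 erythroid gene was called. The NK call was lost after that correction too. With the same FPKM total 0 genes of the B cell, NK and endothelial lists were called higher. Called lower were then 4 macrophage or dendritic, 2 epithelial and 1 endothelial gene, while 3 double-negative genes stayed lower and 3 erythroid genes higher. With the WT libraries as 1 sample the calls were 1 double-negative, 1 macrophage or dendritic and 3 erythroid genes, and 0 in the B cell, NK, endothelial and epithelial lists. The part of these cells in the Gimap values was not tested.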

How the data were processed

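Poly(A)-selected RNA of 6 sorted DP thymocyte libraries, 3 WT and 3 cKO, was sequenced as read pairs. The authors aligned reads with TopHat to mm10 and deposited FPKM per gene symbol made with Cufflinks. Versions, annotation and strand setting are not given in the sources used here. FPKM are not counts, so the count test and the splicing analysis of the study were not repeated.

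FPKM were divided by median-of-ratios size factors (1.00 to 1.01), and log2(FPKM + 1) of genes with at least 1 FPKM in at least 3 libraries was fitted with limma 3.58.1 (R 4.3.3) with a mean-variance trend, and Benjamini-Hochberg adjustment over all 10326 genes. The script was checked on simulated data. Each of 16 alternative settings was refitted over all genes. Depth was inferred from the spacing of low FPKM values, of which 70.8% to 79.8% per library came within 0.1 of a whole number of fragments, so whole counts were not recovered and fragment numbers are approximate. Symbols were matched to GENCODE and RefSeq genes on GRCm38, and GC content and transcript length were known for 99.2% of tested genes. Whether the replicate numbers pair the libraries could not be told, and the main fit did not pair them.

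All 8 members were named with every value. Of the genes around the cluster, those called and the nearest on each side were named, and of each list up to 4 per direction by adjusted p. All 6 lower mature markers were named after their values were seen, and 1 further marker of this list is not reported here. The members, lists and tests were chosen with earlier results of these data known.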

Additional observations from a re-analysis of the deposited data

How the results depend on the processing

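Gimap3 and Gimap4 kept their direction and call under all 16 alternatives, and Gimap8 under all but the one with the WT libraries as 1 sample. The count of members called higher (3) was 0 with the same FPKM total, under quantile normalization and with the WT libraries as 1 sample, 1 after correction for GC content and length, and 0 to 4 leaving out each library in turn. The count called lower (3) was 6 with the same FPKM total and 3 without any one library. The same FPKM total turned the log2 fold change of Gimap1 to -0.085, Gimap6 to -0.28, Gimap7 to -0.39 and Gimap9 to -0.28, and also Tmem176b to -0.12, Malsu1 to -0.13, Bcl2l1 to -0.30, Map1lc3b to -0.13 and Gabarapl2 to -0.046. Quantile normalization turned Gimap6 to -0.19, Gimap9 to -0.082, Bcl2l1 to -0.11, Map1lc3b to -0.028 and Zfp775 to 0.15. The GC content and length correction turned Gimap7 to -0.37, Gimap9 to -0.35, Repin1 to 0.017 and Zfp775 to 0.50. Leaving out each library in turn, the log2 fold change of Gimap5 ran from -0.18 to 0.071, above 0 without WT 3 (0.026) and without cKO 2. That of Gimap7 ran from -0.068 (without cKO 1) to 0.36, and that of Zfp775 from -0.079 to 0.067, above 0 without WT 2 (0.013) and without cKO 2.

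Over all tested genes 3693 were called higher and 3073 lower. These were 902 and 6181 with the same FPKM total, and 739 and 902 with the WT libraries as 1 sample, a fit in which the lone WT value is assumed to vary like the cKO libraries. Leaving out each library gave 3063 to 4082 higher and 2325 to 3556 lower. Of the neighbours of the cluster, 6 were called, 2 with the WT libraries as 1 sample, 3 after the GC content and length correction, and 3 to 7 leaving out each library. The mature markers called lower numbered 5 to 7 without each library. The summed Gimap FPKM of cKO over WT was 1.15, 0.775 with the same FPKM total, and 1.10 to 1.21 without each library.

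The replicate numbers in the labels did not pair the libraries (correlations of same-numbered deviations -0.02, 0.04 and 0.03). With the replicate block 2 members were called higher and 3 lower, the lost one being Gimap6 (adjusted p = 0.0746), and 3513 genes were called higher and 2954 lower. Without the filter on low values Gimap6 also lost its call (adjusted p = 0.0653). The cause was not tested for any of these changes. Depth limits Gimap3 in cKO most, at about 26.5 to 44.7 fragments a library.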
